A study of Mus musculus with 12 samples.

Results

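The Hox genes of the mouse anterior prostate were compared between APT121 and wild type males. Hox genes were taken as every gene with a symbol of the form Hoxa, Hoxb, Hoxc or Hoxd and a number, read through a transcript cluster (the array's probe set for a gene) with that symbol alone. This gave 37 of the 19935 genes tested. There were 10 HoxA, 9 HoxB, 9 HoxC and 9 HoxD genes, each read by 1 transcript cluster. The APT121 transgene expresses T121, the part of the SV40 large T protein that inactivates pRb and its relatives, from the probasin promoter, which is active in prostate epithelium, and their samples are labelled as holding prostatic intraepithelial neoplasia (PIN) lesions. The wild type samples are labelled normal. All mice were F3 males whose background mixed C57BL/6J with DBA/2, were fed the semi-purified AIN93G diet from 3 weeks of age and were killed at 12 weeks. RNA of the whole anterior lobe was combined from 2 mice for each array, so that 8 APT121 mice gave 4 arrays and 16 wild type mice gave 8. The T121 transgene itself is not analysed here.

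Hox genes encode homeodomain transcription factors that tell cells of the embryo where along the head to tail axis they lie. In mammals they sit in 4 clusters, HoxA to HoxD, and copies that hold the same place in different clusters carry the same paralogue number, from 1, expressed most anteriorly, to 13, expressed most posteriorly. The prostate buds from the urogenital sinus near the hind end of the body, where paralogues of the posterior kind, the relatives of fly Abdominal-B that carry the numbers 9 to 13, are active. In the mouse, Hoxa10, Hoxa13, Hoxb13 and Hoxd13 have known roles in forming the male accessory glands, and adult prostate keeps expressing Hoxb13.

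The deposited values are intensities that the authors normalised by RMA, used here as log2. Array medians ran from 32.1 to 33.7 in intensity, and arrays give no read depth, so their number limits the precision. Group means are given on the log2 scale ± SD (n = 4 for APT121, n = 8 for wild type), each difference is APT121 minus wild type in log2 units ± SE, and adjusted p-values come from limma over all 19935 genes. An intensity also depends on the probes of its transcript cluster, so levels are not ranked between genes. No detection calls were used, so a dim value may be background. Seminal vesicle transcripts were high on all 4 APT121 arrays and on wild type array 6, with summed marker intensities of 1563 to 17971 in APT121, 15892 on wild type array 6 and 136 to 194 on wild type arrays 1 to 4. The highest adipose marker sum was among wild type arrays 5 to 8. Counts are also given without wild type arrays 5, 6 and 7, which leaves the seminal vesicle signal in APT121 in place. In bulk tissue, fewer cells that express a gene and less RNA per cell cannot be told apart.

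Hox genes of the HoxB, HoxC and HoxD clusters were mostly lower in APT121 prostate, while the called genes of the HoxA cluster were higher. Of the 37 Hox genes, 4 rose (10.8%) and 21 fell (56.8%), where 22.8% of all genes rose and 30.0% fell. In all, 67.6% of Hox genes passed an adjusted p of 0.05, against 52.8% of all genes, and their median difference was -0.25, against -0.09 for all genes. All 4 rises were of HoxA genes (Hoxa3, Hoxa5, Hoxa9 and Hoxa13) and 0 of the 10 HoxA genes fell, although Hoxa4 (-0.19, adjusted p = 0.0677) did when arrays were centred on their medians, when quantile normalisation was repeated, when the dimmest 50% of genes were left out or without wild type array 2 or 8. In HoxB 6 of 9 genes fell, in HoxC 9 of 9 and in HoxD 6 of 9, and 0 of these 27 rose, apart from Hoxd13 against wild type arrays 1 to 4 alone and with replicate number as a block. The APT121 and wild type arrays did not overlap for 14 Hox genes (37.8%, against 34.6% of all genes), 3 with APT121 above and 11 with APT121 below. Without wild type arrays 5, 6 and 7, 3 Hox genes rose and 17 fell, the call of Hoxa3 among the rises being lost. Of all 19935 genes, 4230 rose and 5084 fell in that setting.

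**Figure D1:**
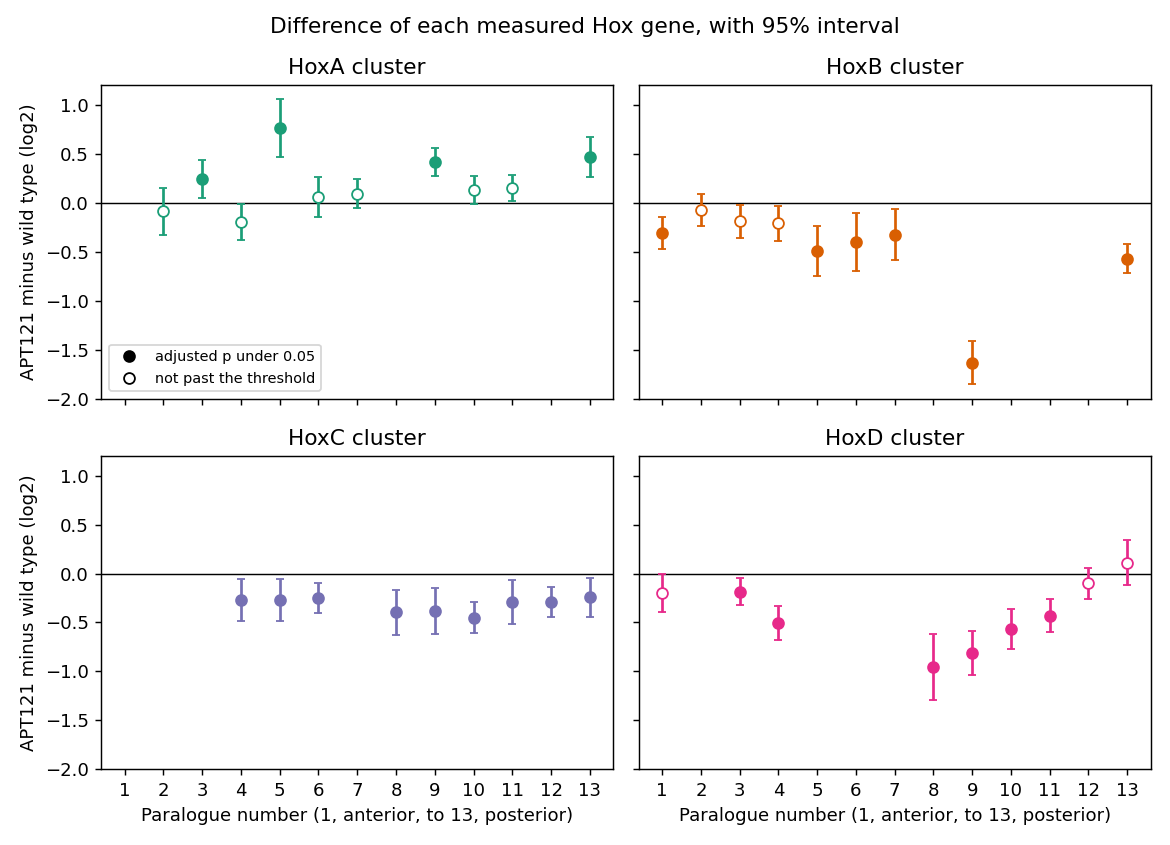
APT121 minus wild type difference (log2, y axis) of each measured Hox gene by paralogue number (x axis) in the 4 clusters, with its 95% interval. Filled points passed an adjusted p of 0.05. All 4 filled points above 0 are HoxA genes, and the lowest point is Hoxb9 at -1.63.

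Of all genes, 13.2% rose by at least 0.5 and 8.77% fell by at least 0.5, as 1 and 6 Hox genes did. Most of the falls were small, and small falls were common among dim genes on these arrays. When all genes were split into 4 bands of equal size by their mean over the 12 arrays, the median difference was -0.11 in the dimmest band, -0.17 in the next, 0.03 in the third and 0.02 in the brightest. In the dimmest band 2.79% of all genes rose and 18.9% fell, as 0 and 4 of 5 Hox genes did. In the next band 15.1% of all genes rose and 36.7% fell, as 1 and 9 of 14 Hox genes did (64.3% fell). In the third band 31.1% of all genes fell and 36.5% rose, as 7 (46.7%) and 2 (13.3%) of 15 Hox genes did. In the brightest band 36.7% of all genes rose and 33.4% fell, and of its 3 Hox genes Hoxa9 rose, Hoxb13 fell and Hoxd13 was not called. The clusters differed in brightness. In the third or brightest band lay 8 of 10 HoxA, 4 of 9 HoxD and 0 of 9 HoxC genes. The share of HoxA genes that rose, 40%, was thus near that of all genes in those bands, while 0% of HoxA genes fell. Whether brightness bears on the contrast between clusters was not tested.

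**Figure D2:**
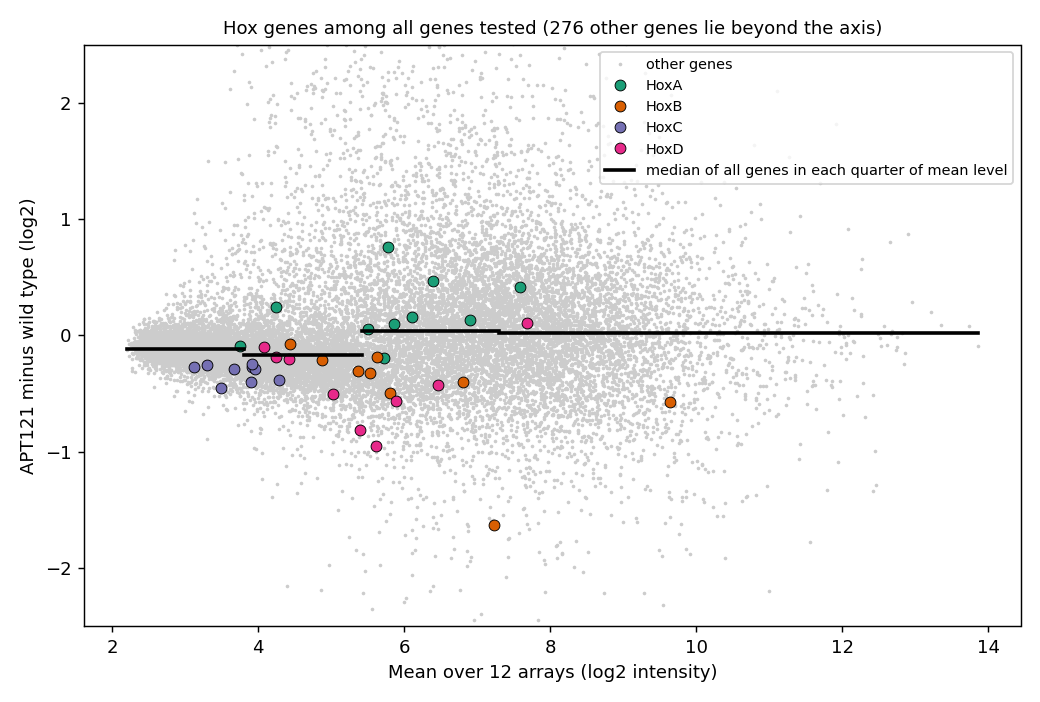
APT121 minus wild type difference (log2, y axis) against the mean over 12 arrays (log2 intensity, x axis) for all genes tested (grey) and Hox genes (coloured by cluster). Black lines mark the median of all genes in each of 4 equal bands of mean level, from -0.11 in the dimmest to 0.02 in the brightest. HoxC genes cluster at the dim end, and Hoxb9 (-1.63), Hoxd8 (-0.95), Hoxd9 (-0.81) and Hoxa5 (0.76) lie furthest from the medians.

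Among paralogues 9 to 13, 2 of 16 genes rose and 10 fell, where 22.8% of all genes rose and 30.0% fell. Hoxb9 (transcript cluster 10380622), which helps to pattern thoracic segments and mammary gland in mice, had the largest difference of the 37 genes. Its log2 intensities were 5.71, 6.16, 6.43 and 6.25 in APT121 pools 1 to 4, against a lowest, median and highest of 7.62, 7.78 and 7.88 in wild type pools. All 4 APT121 values thus lay more than 1 log2 unit below every wild type value. Hoxb9 fell 3.10-fold (-1.63 ± 0.10, adjusted p = 1.94e-09). Over the alternative settings tried its difference lay between -1.76 and -1.44.

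Hoxb13 (10380614), a homeodomain factor that binds the androgen receptor and marks prostate epithelium, had 9.30, 9.22, 9.20 and 9.33 in APT121 pools, against 9.64, 9.86 and 9.96 as the lowest, median and highest in wild type pools. The groups did not overlap, and both spreads were narrow (SD 0.06 in APT121 and 0.11 in wild type). It fell 1.49-fold (-0.57 ± 0.07, adjusted p = 4.60e-06). Hoxa13 (10544805), needed in mice for the genital tubercle and hindgut, went the other way. It had 6.76, 6.97, 6.70 and 6.39 in APT121 pools, against 6.04, 6.20 and 6.40 as the lowest, median and highest in wild type pools. Pool 4 of APT121 lay inside the wild type range and the other 3 above it, and the difference was 0.47 ± 0.10 (adjusted p = 6.75e-04).

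Hoxd13 (10472946), which acts with Hoxa13 in limb and urogenital development, had 7.76, 7.78, 7.53 and 7.93 in APT121 pools, against 7.38, 7.66 and 7.95 as the lowest, median and highest in wild type pools. The groups overlapped throughout, and its difference of 0.11 (95% interval -0.12 to 0.34, adjusted p = 0.411) did not pass. Its wild type arrays fell into separate ranges by number, from 7.38 to 7.59 in arrays 1 to 4 and from 7.73 to 7.95 in arrays 5 to 8. Against wild type arrays 1 to 4 alone it differed by 0.28 (adjusted p = 0.0304) and against arrays 5 to 8 alone by -0.06 (adjusted p = 0.584), and repeated quantile normalisation gave -0.04 (adjusted p = 0.815). Hoxd8 was the other Hox gene with such a parting, from 5.54 to 5.84 and from 5.94 to 6.28, and 10.5% of all genes showed one. The labels do not say what the numbers stand for. Hoxc13 (10427268), known for hair and nail growth, had 3.80, 3.70, 3.95 and 3.59 in APT121 pools, against 3.78, 4.00 and 4.23 as the lowest, median and highest in wild type pools. These are dim, overlapping values, with a difference of -0.24 ± 0.09 (adjusted p = 0.0383).

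**Figure D3:**
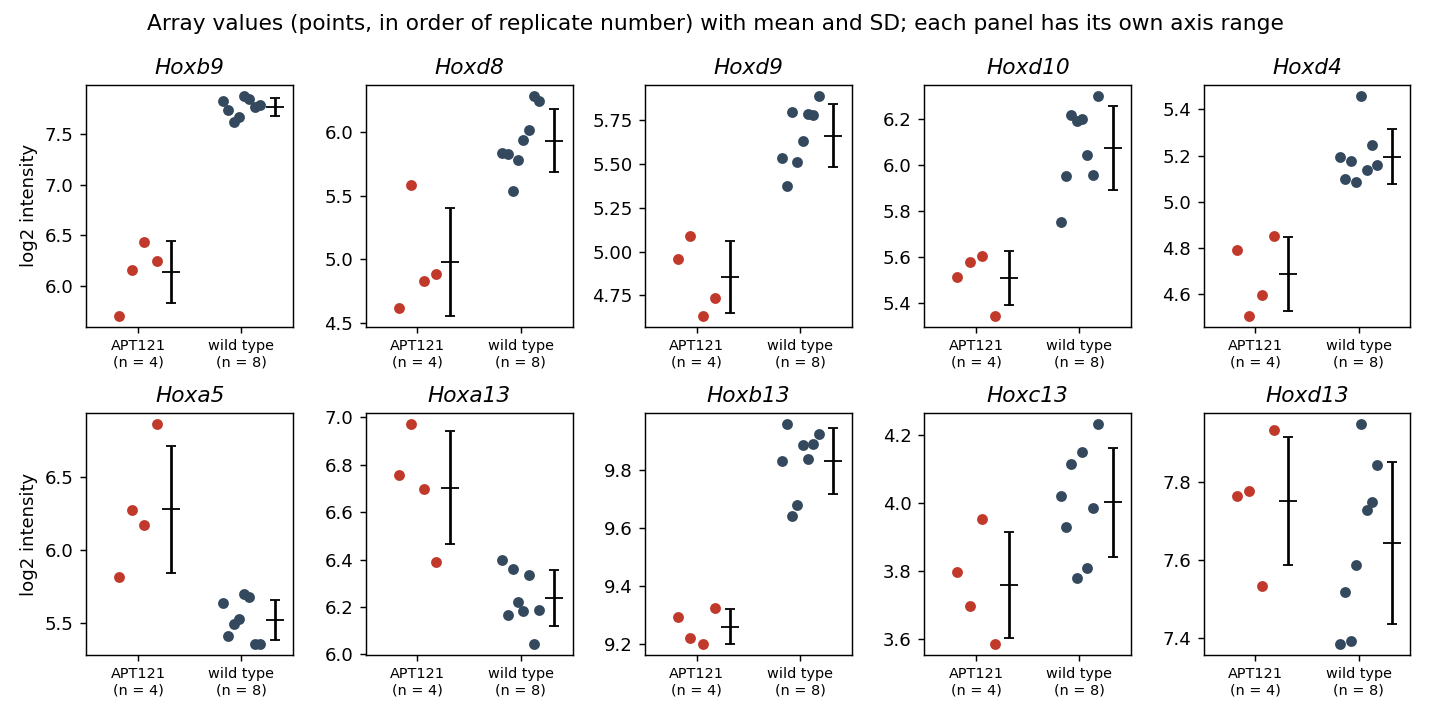
Log2 intensity (y axis) on every APT121 array (red, left) and wild type array (blue, right) of the 7 Hox genes that differed by at least 0.5 and of the paralogue 13 genes, with mean and SD bars. Each panel has its own axis range. Hoxb9, Hoxd9, Hoxd10, Hoxd4, Hoxa5 and Hoxb13 show no overlap between the groups, and Hoxd13 overlaps throughout.

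Of the remaining HoxA and HoxD paralogues 9 to 12, Hoxa9 rose and 3 HoxD genes fell. Hoxa9 (10544788), known in blood cell precursors, rose by 0.42 ± 0.07 (adjusted p = 8.42e-05), with 7.74 to 8.05 in APT121 and 7.35 to 7.59 in wild type pools. Hoxa10 (0.13, 95% interval -0.01 to 0.27, adjusted p = 0.119), whose loss in mice alters the anterior prostate, did not pass. Hoxa11 (0.15, adjusted p = 0.0508), which shapes the vas deferens, missed the threshold narrowly although its 4 APT121 values lay above all wild type values. In HoxD, Hoxd9 fell by 0.81 ± 0.11 (adjusted p = 8.28e-06), Hoxd10 by 0.56 ± 0.10 (adjusted p = 1.25e-04) and Hoxd11 by 0.43 ± 0.08 (adjusted p = 2.54e-04), while Hoxd12 (-0.10, adjusted p = 0.254) did not pass.

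From Hoxd8 to Hoxd13 the differences were -0.95, -0.81, -0.56, -0.43, -0.10 and 0.11, an order that was not tested. The 95% intervals of Hoxd8 (-1.29 to -0.61) and Hoxd9 (-1.03 to -0.59) overlapped, and without APT121 array 1 their values were -0.83 and -0.84. Repeated quantile normalisation turned the order of Hoxd12 and Hoxd13. Anterior to Hoxd8 the differences were -0.51 for Hoxd4, -0.18 for Hoxd3 and -0.20 for Hoxd1 (adjusted p = 0.0723). Hoxd8 (10472965) had 4.61, 5.59, 4.83 and 4.89 in APT121 pools, against 5.54, 5.89 and 6.28 as the lowest, median and highest in wild type pools. Pool 2 of APT121 stood above the other 3 and inside the wild type range (-0.95 ± 0.16, adjusted p = 1.18e-04). Hoxd9 (10472962) had 4.96, 5.09, 4.63 and 4.73 in APT121 pools, against 5.38, 5.71 and 5.89 as the lowest, median and highest in wild type pools. Hoxd10 (10472958), which in mice patterns hindlimb motor neurons, had 5.51, 5.58, 5.60 and 5.35 in APT121 pools, against 5.75, 6.11 and 6.30 as the lowest, median and highest in wild type pools. For Hoxd9 and Hoxd10 every APT121 value lay below every wild type value. Hoxd4 (10472970), an anterior member of the cluster that helps set the neck vertebrae, had 4.79, 4.51, 4.60 and 4.85 in APT121 pools, against 5.09, 5.17 and 5.46 as the lowest, median and highest in wild type pools. It fell by 0.51 ± 0.08 (adjusted p = 8.10e-05), again with no overlap.

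RefSeq promoter windows (assembly GRCm38.p6, 250 bases before to 50 after a start site) matched 21 of the 37 genes. Those of the HoxD genes that fell by at least 0.5 and of Hoxa5, which rose by at least 0.5, are shown because these genes changed most among the genes with a window, in opposite directions by cluster. Capitals mark matches, on either strand, to the TATAAA box, the CCAAT box or the GC box GGGCGG, all common promoter elements.
Hoxd8 (chr2:74704365-74704664, plus strand): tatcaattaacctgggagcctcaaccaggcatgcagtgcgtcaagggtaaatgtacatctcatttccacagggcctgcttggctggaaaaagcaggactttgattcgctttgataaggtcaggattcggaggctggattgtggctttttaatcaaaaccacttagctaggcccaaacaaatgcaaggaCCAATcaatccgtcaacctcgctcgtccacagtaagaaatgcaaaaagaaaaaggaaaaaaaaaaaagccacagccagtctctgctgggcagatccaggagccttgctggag
Hoxd9 (chr2:74697513-74697812, plus strand): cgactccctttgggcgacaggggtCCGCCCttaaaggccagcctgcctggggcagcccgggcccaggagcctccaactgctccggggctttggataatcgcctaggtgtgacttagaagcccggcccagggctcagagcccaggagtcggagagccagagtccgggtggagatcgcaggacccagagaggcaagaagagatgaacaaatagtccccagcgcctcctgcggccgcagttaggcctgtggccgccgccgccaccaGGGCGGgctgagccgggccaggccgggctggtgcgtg
Hoxd10 (chr2:74691641-74691940, plus strand): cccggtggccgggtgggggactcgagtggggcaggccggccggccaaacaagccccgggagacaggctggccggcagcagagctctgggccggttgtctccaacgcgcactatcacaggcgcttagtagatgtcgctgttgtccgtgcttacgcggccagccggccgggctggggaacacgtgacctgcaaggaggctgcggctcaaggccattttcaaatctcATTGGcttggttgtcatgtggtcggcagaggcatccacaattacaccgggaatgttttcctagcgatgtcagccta
Hoxd4 (chr2:74721728-74722027, plus strand): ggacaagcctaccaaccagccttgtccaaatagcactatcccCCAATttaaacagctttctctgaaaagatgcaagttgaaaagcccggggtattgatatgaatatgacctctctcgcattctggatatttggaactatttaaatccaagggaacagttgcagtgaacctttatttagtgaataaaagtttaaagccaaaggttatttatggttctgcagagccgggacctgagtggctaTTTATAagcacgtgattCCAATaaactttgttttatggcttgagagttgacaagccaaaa
Hoxa5 (chr6:52204538-52204837, minus strand): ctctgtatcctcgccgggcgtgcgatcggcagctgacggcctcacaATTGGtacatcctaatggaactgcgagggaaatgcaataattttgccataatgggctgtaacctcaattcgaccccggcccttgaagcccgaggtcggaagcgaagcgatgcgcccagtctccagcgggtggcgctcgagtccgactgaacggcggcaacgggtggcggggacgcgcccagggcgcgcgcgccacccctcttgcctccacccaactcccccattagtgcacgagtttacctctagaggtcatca
The windows differed in base composition, with a GC content of 46.7% for Hoxd8, 68.3% for Hoxd9, 62.7% for Hoxd10, 39.7% for Hoxd4 and 61.7% for Hoxa5. CCAAT was found in 14 of the 21 Hox windows and in 37.4% of all 32851 windows, GGGCGG in 9 and in 35.7%, and TATAAA in 3 and in 13.6%. Other motifs were searched on both strands. E2F-type sites, written as TTTCCCGC, TTTGGCGC, TTTCGCGC or TTTGCCGC, were found in 0 of the 21 and in 2.26% of all windows, and TGATNNAT, a form of the joint site of Pbx and Hox proteins, in 3 (Hoxa2, Hoxb1 and Hoxd11) and in 8.85%. Among the windows shown, CCAAT stood in those of Hoxd8, Hoxd10, Hoxd4 and Hoxa5, GGGCGG in that of Hoxd9 and TATAAA in that of Hoxd4. Hoxa5 was the only gene shown that rose, and Hoxb9 and Hoxb13 had no window. Whether a motif goes with the direction of change was not tested.

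Among paralogues 5 to 8, 1 of 10 genes rose and 7 fell, where 22.8% of all genes rose and 30.0% fell. Hoxa5 (10544768), needed in mice for lung and cervical skeleton, had 5.81, 6.27, 6.17 and 6.86 in APT121 pools, against 5.35, 5.51 and 5.70 as the lowest, median and highest in wild type pools. All APT121 pools lay above all wild type pools, with pool 4 highest (SD 0.44 in APT121 and 0.14 in wild type), and Hoxa5 rose 1.70-fold (0.76 ± 0.14, adjusted p = 2.72e-04). Its paralogues Hoxb5 (-0.49 ± 0.12, adjusted p = 0.00271) and Hoxc5 (-0.27 ± 0.10, adjusted p = 0.0334) fell. Hoxb6 (-0.40), Hoxb7 (-0.32), Hoxc6 (-0.25) and Hoxc8 (-0.40), genes of the trunk region in the embryo, fell as well, while Hoxa6 (0.06) and Hoxa7 (0.10) did not pass. Among paralogues 1 to 4, 1 of 11 genes rose and 4 fell. Hoxa3, a gene of the pharyngeal arches, rose by 0.25 ± 0.09 (adjusted p = 0.0322), a call lost under 11 of 24 alternative settings. Hoxb1, a hindbrain gene, fell by 0.31 ± 0.08 (adjusted p = 0.00286) with no overlap. Hoxc4 (-0.27), Hoxd4 and Hoxd3 (-0.18) were the other falls.

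All 9 HoxC genes were dim, with means from 2.95 (Hoxc4) to 4.03 (Hoxc9) in APT121 and from 3.22 (Hoxc4) to 4.42 (Hoxc9) in wild type pools. Their differences lay between -0.45 (Hoxc10, adjusted p = 1.23e-04) and -0.24 (Hoxc13). The groups did not overlap for 3 of the 9 (Hoxc6, Hoxc10 and Hoxc12), or 33.3%, near the 34.6% of all genes. The count of 9 falls dropped to 3 when the values were quantile normalised again, to 5 without APT121 array 2, to 5 without wild type arrays 5, 6 and 7 and to 4 against wild type arrays 1 to 4 alone. Hoxc8, Hoxc10 and Hoxc12 kept their call under all alternatives in which they were tested, a 1.5-fold minimum apart.

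Of 38 pairs of Hox genes with the same paralogue number, 20 changed unequally. For each of the 38 pairs of same-numbered genes, the log2 ratio of their intensities on each array was compared between genotypes with an exact two-sided permutation test over all 495 groupings, adjusted over the 38 pairs, a comparison added after the data were seen. The ratio of 2 probe sets has no meaning as a level, and its change shows unequal change of the pair. Of the 20 pairs that passed, 13 did so at 0.00202, the smallest p these groupings can give. This share was not set against that of other gene pairs. Of 21 pairs with a HoxA gene, 15 passed, and in each of the 15 the HoxA gene was higher relative to its partner in APT121. Of the 17 pairs without one, 5 passed. Pairs share genes and restate the single-gene differences above, so these counts are a description and no separate support. The ratio of Hoxa9 to Hoxb9 was 1.74 ± 0.33 in APT121 and -0.31 ± 0.10 in wild type pools, higher by 2.05 (adjusted p = 0.00591, exact permutation test). Hoxa5 over Hoxb5 was higher by 1.25, Hoxa9 over Hoxd9 by 1.23 and Hoxa13 over Hoxb13 by 1.04 (each adjusted p = 0.00591, exact permutation test), with no overlap of arrays. Hoxa13 over Hoxd13 (0.36, adjusted p = 0.118, exact permutation test) and Hoxc10 over Hoxd10 (0.11, adjusted p = 0.456, exact permutation test) did not pass. Without wild type arrays 5, 6 and 7, 13 pairs passed.

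**Figure D4:**
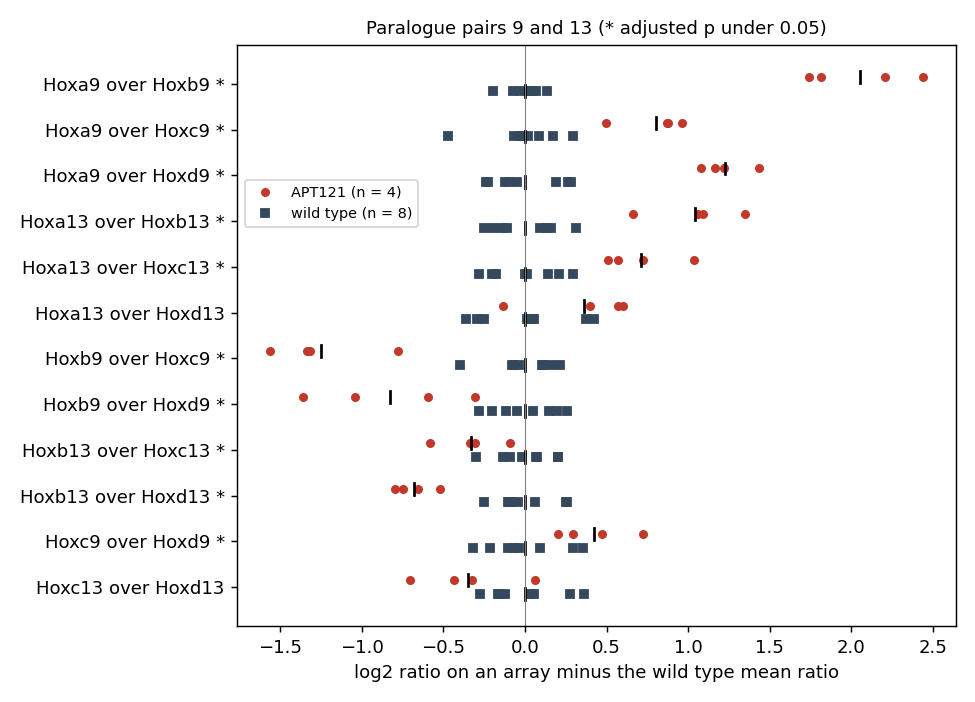
Log2 ratio of 2 same-numbered Hox genes on each array minus the wild type mean ratio (x axis) for the 12 pairs of paralogues 9 and 13, with APT121 arrays (red circles) above wild type arrays (blue squares) and black ticks at the means. Asterisks mark an adjusted p under 0.05. Hoxa9 over Hoxb9 is furthest right at 2.05, and Hoxb9 over Hoxc9 furthest left at -1.25.

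Hox proteins bind DNA with homeodomain partners of the Pbx, Meis and Pknox families. Of 10 measured genes of this list, 4 rose and 3 fell, with a median difference of -0.04, where 22.8% of all genes rose and 30.0% fell. Pknox2 rose by 1.52 ± 0.17 (adjusted p = 1.24e-06), Pbx3 by 1.33 ± 0.10 (adjusted p = 1.76e-08) and Meis1, which pairs with posterior Hox proteins, by 0.91 ± 0.07 (adjusted p = 4.45e-08), whereas Meis2 fell by 0.24 ± 0.07 (adjusted p = 0.00690). In each of these 4 genes, picked from the list, the groups did not overlap. Of the 10 genes, 4 lay apart with APT121 above and 2 with APT121 below, where 34.6% of all genes lay apart.

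Polycomb complexes keep Hox clusters silent, and Trithorax complexes keep them active. The shares over all genes were 22.8% higher and 30.0% lower. Of 18 Polycomb genes, 9 rose and 4 fell (median 0.22), with Ezh2, the methyltransferase of the silencing mark on histone H3, at 8.78 ± 0.16 in APT121 and 6.72 ± 0.16 in wild type pools (2.06 ± 0.09, adjusted p = 3.53e-11). Its partner Suz12 rose by 0.91 ± 0.07 and the accessory factor Mtf2 by 0.88 ± 0.06. Of 13 Trithorax and related genes, 11 rose and 1 fell (median 0.40). Among them Psip1, a chromatin tether of the complex, rose by 0.97 ± 0.09, the methyltransferase Kmt2a by 0.96 ± 0.12 and the methyltransferase Dot1l by 0.88 ± 0.09. After repeated quantile normalisation 7 Polycomb genes fell and 7 Trithorax genes rose.

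Retinoic acid switches on Hox genes in the embryo, from the anterior end of each cluster. Of 17 genes of its synthesis, breakdown and reception, 7 rose and 3 fell (median 0.10), where 22.8% of all genes rose and 30.0% fell. Dhrs3, a retinal reductase, was at 10.77 ± 0.39 in APT121 and 7.88 ± 0.13 in wild type pools (2.90 ± 0.13, adjusted p = 2.67e-11). The retinol transporter Stra6 rose by 2.11 ± 0.10 and the retinal dehydrogenase Aldh1a1 by 1.55 ± 0.20. The degrading enzymes Cyp26a1 (-0.25) and Cyp26b1 (-0.30) and the dehydrogenase Aldh1a2 (-0.35) were the members that fell, named after their values were seen. Of these 3 falls 0 passed without wild type arrays 5, 6 and 7 or against arrays 1 to 4 alone, and 1 passed without APT121 array 3.

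Genes that flank the Hox clusters moved both ways. Of 25 measured, 6 rose and 9 fell (median 0.01), shares of the size seen in all genes (22.8% rose and 30.0% fell). Cbx5, a heterochromatin protein beside HoxC, rose by 1.60 ± 0.07 (adjusted p = 2.37e-11), Atp5g1, an ATP synthase subunit beside HoxB, fell by 0.65 ± 0.10 (adjusted p = 7.64e-05), and the homeobox gene Evx2, next to Hoxd13, fell by 0.55 ± 0.08 (adjusted p = 3.54e-05). Other homeobox and paired box genes of the urogenital tract and caudal body, listed with some zinc finger and SATB relatives, rose for 3 of 32 and fell for 16 (median -0.24). Satb1, a chromatin organiser with a homeodomain, fell by 1.84 ± 0.12 (adjusted p = 3.29e-09) and the LIM homeobox gene Isl1 by 0.92 ± 0.09, while Irx5, of the Iroquois family, rose by 0.98 ± 0.10.

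The clusters also hold microRNA genes, named here after their values were seen. They fall into families by their seed, bases 2 to 8 of the mature RNA, which is in capitals in these RefSeq sequences and is shared within each family.
mmu-miR-196a-5p: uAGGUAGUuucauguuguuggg
mmu-miR-196b-5p: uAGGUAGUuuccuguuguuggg
mmu-miR-10a-5p: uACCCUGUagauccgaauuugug
mmu-miR-10b-5p: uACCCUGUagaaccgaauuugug
In mice, the miR-196 family targets Hoxb8 and other Hox messengers. The array reads long RNA over these loci, not the mature microRNA. Mir196b, which lies between Hoxa9 and Hoxa10, had 4.64, 4.57, 4.69 and 4.46 in APT121 pools, against 5.22, 5.66 and 5.90 as the lowest, median and highest in wild type pools. It fell by 1.01 ± 0.13 (adjusted p = 4.70e-06) with no overlap, whereas neither neighbour fell (0.42 for Hoxa9 and 0.13 for Hoxa10). Mir196a-1, near Hoxb9, differed by -0.35 (adjusted p = 0.135) against all wild type arrays. The value was -0.73 (adjusted p = 3.92e-04) against wild type arrays 1 to 4 and 0.03 (adjusted p = 0.796) against arrays 5 to 8. Mir615, in the HoxC cluster, fell by 0.44 ± 0.11 (adjusted p = 0.00309). Mir10a (-0.09), Mir10b (-0.15) and Mir196a-2 (-0.10) were dim and did not pass. Of the long noncoding RNAs in the clusters, Hoxaas2 (-0.21, adjusted p = 0.0320) and Hoxd3os1 (-0.23, adjusted p = 0.0432) fell and Hottip (-0.18, adjusted p = 0.147), beside Hoxa13, did not pass. Both falls were small, with overlapping groups. Hoxaas2 lay in the dimmest band, where the median of all genes was -0.11, and Hoxd3os1 in the next, where it was -0.17.

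Markers of the cell types of the lobe also changed, and their part in these results was not tested. For every marker list the shares to compare are those of all genes, of which 22.8% rose and 30.0% fell. Smooth muscle markers fell for 11 of 13 (median -0.51), with a summed intensity of 8658 to 11392 in APT121 and 13312 to 15325 in wild type arrays, and fibroblast markers fell for 11 of 13 (median -0.52), with 2092 to 3419 and 3945 to 4699. The differences of the 37 Hox genes ran from -1.63 to 0.76, and whether the falls of these markers bear on them was not tested. Endothelial markers fell for 9 of 11 (median -0.42, sums of 498 to 537 in APT121 and 693 to 808 in wild type). Luminal epithelial markers rose for 5 of 11 and fell for 5 (median -0.04, sums of 21853 to 22588 in APT121 and 22516 to 25313 in wild type). Basal markers rose for 2 of 10 and fell for 7 (median -0.57), with overlapping sums of 1452 to 1607 in APT121 and 1450 to 1793 in wild type. Krt5 fell by 1.29 ± 0.17, and the highest difference on the basal list, 1.43, was larger in size. Myeloid markers rose for 8 of 11 (median 0.58, sums of 1175 to 2096 in APT121 and 698 to 857 in wild type), and lymphocyte markers rose for 4 of 10 and fell for 1. The myeloid count was 5 without wild type arrays 5, 6 and 7, without wild type array 4 or 7 alone and without APT121 array 1 or 2. It was also 5 with arrays centred on their medians, with replicate number as a block, against wild type arrays 1 to 4 alone and with a 1.5-fold minimum.

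Adipose markers fell for 8 of 8 (sums of 527 to 561 in APT121 and 681 to 1172 in wild type), skeletal muscle markers for 5 of 10, peripheral nerve markers for 2 of 4 and neuroendocrine markers for 5 of 6. Without wild type arrays 5, 6 and 7, 0 neuroendocrine markers fell, and 1 or 2 fell when wild type array 6, 7 or 8 or any APT121 array was left out. The neuroendocrine count was also 0 after repeated quantile normalisation, with replicate number as a block, against wild type arrays 1 to 4 alone and with a 1.5-fold minimum. Urothelial markers rose for 3 of 6. Seminal vesicle markers rose for 3 of 8, with sums from 1563 to 17971 in APT121 and from 100.2 to 15892 in wild type arrays, the highest wild type sum being that of array 6. On that array Hoxb9 was at 7.85, Hoxb13 at 9.84 and Hoxa5 at 5.68, each within the range of the other wild type arrays. Hoxa6 (5.61), Hoxa7 (5.92), Hoxc6 (3.54) and Hoxc9 (4.90) had their highest wild type value there, and Hoxa3 (3.98) its lowest. What the seminal vesicle signal adds to the Hox values of the APT121 arrays was not tested. Hoxb9, Hoxb13, Hoxd9 and Hoxa5 kept their direction and call without wild type arrays 5, 6 and 7, at -1.59, -0.55, -0.77 and 0.80.

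**Figure D5:**
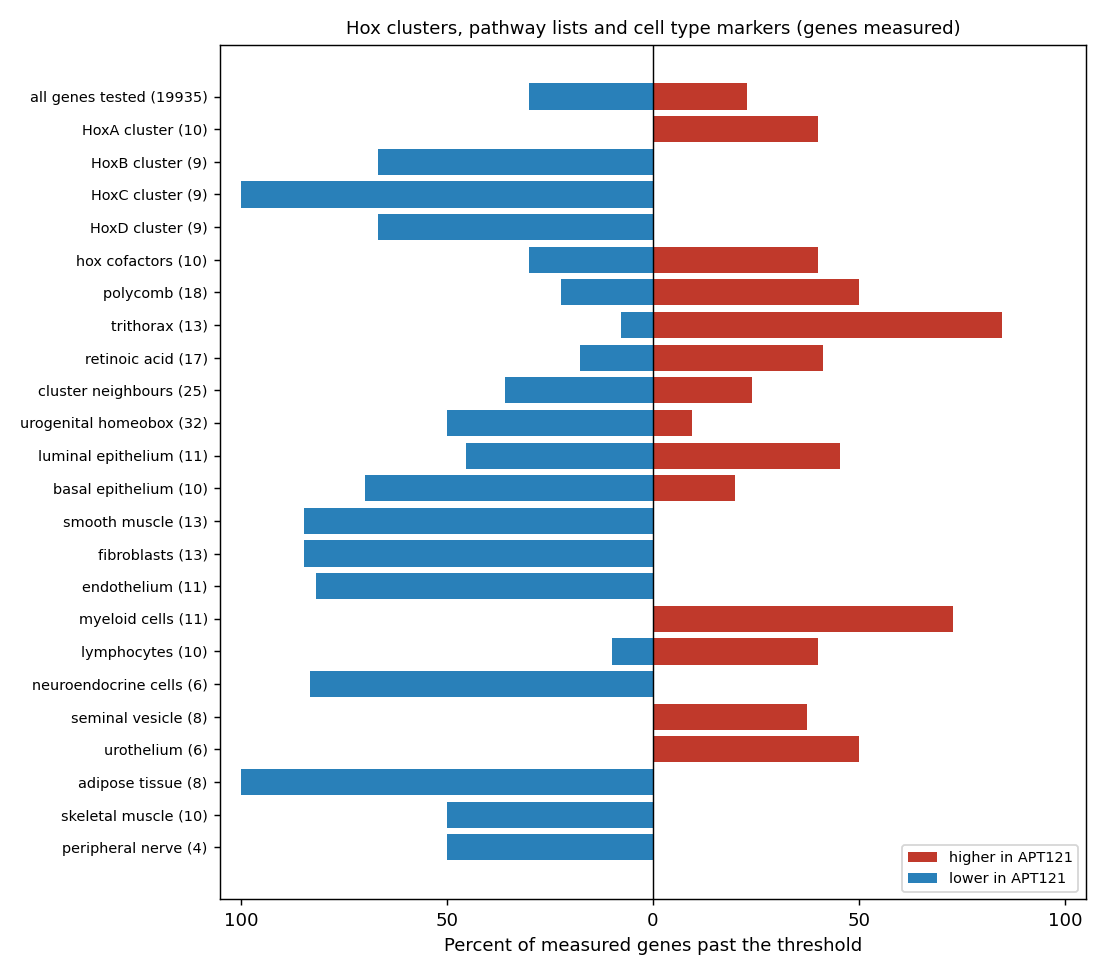
Percent of measured genes past an adjusted p of 0.05 (x axis), higher in APT121 to the right (red) and lower to the left (blue), for all genes, the 4 Hox clusters, the pathway lists and the cell type markers, with the number measured in brackets. HoxC and adipose markers reach 100% lower, and HoxA holds 4 rises and 0 falls with all arrays as deposited.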

How the data were processed

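The authors hybridised total RNA of 12 pools of anterior prostate to Affymetrix GeneChip Mouse Gene 1.0 ST arrays and normalised with RMA, per the submitters' processing notes. The software version is not given in the sources used here. The deposited table holds a linear RMA intensity for every transcript cluster on every array, and its log2 was taken here. RMA gives all arrays like distributions and so hides any shift in RNA content per cell.

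Of 28815 transcript clusters, 21780 had 1 gene symbol, 1605 had several and 5430 had none in the platform annotation. Only the first kind was used, with the highest-mean cluster for 998 genes that had more than 1, which left 19935 genes, dim ones included. The fit used limma 3.58.1 in R 4.3.3 (genotype as the only term, two-sided, Benjamini-Hochberg adjustment), and the fit was tested on simulated data. A replicate is a pool of 2 mice, so the error is that between pools.

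The members and lists were chosen with earlier results of these data known. Values on every array are given for Hox genes past the threshold with a difference of at least 0.5 and for the paralogue 13 genes, and up to 3 called members with the largest difference are named per pathway list, together with Ezh2, Meis1 and Meis2. The 3 retinoic acid genes that fell were named outside this rule. The lists were Hox partners, Polycomb, Trithorax, retinoic acid, cluster neighbours, other homeobox genes and 13 sets of cell type markers. Coordinates are those of the RefSeq tables (GRCm38.p6), since no build is named for the values. Same-numbered arrays of the 2 genotypes share no mice, and their deviations from the group means correlated at -0.0256 to 0.0671.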

Additional observations from a re-analysis of the deposited data

Results flagged for a closer look

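Of 182 groups of arrays, 8 held a single array far from the others by Dixon's criterion, which chance meets in about 1 of 20 groups. For Hox genes there were 4 among 74 groups. Hoxb2 was at 4.61 in APT121 array 2, against 4.29 to 4.34 in the other APT121 arrays. Hoxa6 was at 5.28 in wild type array 5 (5.47 to 5.61 in the others), and Hoxd4 at 5.46 in the same array (5.09 to 5.25 in the others). Hoxc9 was at 4.90 in wild type array 6 (4.16 to 4.50 in the others). The calls of Hoxd4 and Hoxc9 held, and Hoxa6 and Hoxb2 stayed uncalled, without these arrays.

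Of the other genes, the fibroblast marker Pdgfra was at 6.26 in APT121 array 4 (6.73 to 6.80 in the others) and Atp5g1 at 8.34 in wild type array 4 (8.86 to 9.07 in the others). The seminal vesicle genes Svs2 and Pate4 were at 12.93 and 11.14 in wild type array 6, against 4.11 to 6.34 and 3.26 to 4.04 in the other wild type arrays.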

How the results depend on the processing

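Of the 25 Hox genes called, 15 kept their call and direction under every alternative in which they were tested except a 1.5-fold minimum, 9 of them in HoxB and HoxD (Hoxb1, Hoxb5, Hoxb9, Hoxb13, Hoxd4, Hoxd8, Hoxd9, Hoxd10 and Hoxd11), with Hoxa5, Hoxa9, Hoxa13, Hoxc8, Hoxc10 and Hoxc12. Filters on dim genes left out Hoxb1, Hoxc8, Hoxc10, Hoxc12, Hoxd4 and Hoxd9 in at least 1 alternative. The other 10 (Hoxa3, Hoxb6, Hoxb7, Hoxc4, Hoxc5, Hoxc6, Hoxc9, Hoxc11, Hoxc13 and Hoxd3) lost it under at least 1. Losses ranged from 1 of 24 alternatives for Hoxc9 to 12 of 24 for Hoxc5 and Hoxc13, with 11 of 24 for Hoxa3. A further 7 uncalled genes (Hoxa4, Hoxa10, Hoxa11, Hoxb3, Hoxb4, Hoxd1 and Hoxd13) gained a call under at least 1. No called gene changed sign. With a 1.5-fold minimum 1 Hox gene rose (Hoxa5) and 3 fell (Hoxb9, Hoxd8 and Hoxd9), and of all genes 3552 passed, 2288 higher and 1264 lower. Without the dimmest 50% of genes 18 Hox genes were tested and 10 fell, with 3770 of all genes higher and 3326 lower. Leaving out 1 array gave 3 to 5 Hox rises, 16 to 21 falls and medians of -0.27 to -0.23, with 8979 to 10493 genes called (4150 to 4523 higher and 4829 to 5984 lower). Repeated quantile normalisation gave 4 rises and 16 falls, with 3880 of all genes higher and 5498 lower. With replicate number as a block, 4 Hox genes rose and 15 fell, the same counts as against wild type arrays 1 to 4 alone, and 8814 genes were called. The block also left 7 fibroblast markers lower. The numbers were not found to pair the arrays. Of the 38 paralogue pairs, 0 passed against wild type arrays 1 to 4 or 5 to 8 alone, where the smallest p is 0.0286, and 14 to 19 when 1 array was left out. Dim signals limit the HoxC results.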
